A study of Gallus gallus with 40 samples.

Results

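The 20 chorioallantoic membranes taken at day 11 of incubation were compared by the number of the embryo they came from: 9 membranes of embryos numbered 2 to 20 (early numbers) against 11 membranes of embryos numbered 22 to 48 (late numbers). The 20 were all the day 11 libraries of a series of 40, whose other 20 libraries came from day 15 embryos with numbers from 52 upward. Females made up 4 of the early and 6 of the late membranes, and males 5 of the early and 5 of the late. Every embryo was a Ross 308 broiler, a fast-growing meat chicken, from a fertile egg kept cool for 3 days at 16 °C and then incubated at 37.8 °C. The labels name no treatment, sex was typed from neck tissue, and each library came from a different embryo. The labels give the number without saying what it stands for, so the order of collection, the hour, the extraction and the sequencing run cannot be told apart from it, and neither can a difference in developmental stage within day 11. The boundary between 20 and 22 was drawn with earlier results of these data known.

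The chorioallantoic membrane lines the eggshell and is the lung of the avian embryo: a dense capillary plexus under the shell takes up oxygen and gives off carbon dioxide. Its outer chorionic epithelium contains cells that secrete acid to dissolve shell calcium and carry it to the embryo, and its inner allantoic epithelium moves ions and water out of the fluid in which waste collects. Between the layers lie mesenchyme, larger vessels with smooth muscle, and blood. In bulk tissue of this kind, fewer cells of a type and less RNA per cell cannot be told apart.

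The deposited values are treated as FPKM (reads or fragments per kilobase of gene, relative to library size; which of them was counted could not be settled), and the size of 1 read's step in them implied depths of 28.3 to 40.2 M reads in the day 11 libraries. Depth averaged 34.0 M ± 3.55 (SD, n = 9) in early and 36.3 M ± 3.17 (n = 11) in late libraries (two-sided exact permutation test, p = 0.14, adjusted over 2 measures). Haemoglobin genes took 5.07% ± 0.78 of summed FPKM in early and 4.23% ± 1.00 in late libraries (two-sided exact permutation test, adjusted p = 0.11). Genes of the mitochondrial chromosome took 9.16% to 12.8% in early and 8.47% to 10.2% in late libraries. The factors that bring the libraries to 1 scale ran from 0.921 to 1.00 in early and from 1.02 to 1.07 in late libraries, without overlap. No pair of libraries held identical values, and correlations of log2 values between day 11 libraries lay between 0.969 and 0.985. Genes known from this tissue were present in every day 11 membrane, with lowest values of 66.8 scaled FPKM for CA2 and 25.9 for RHCG of its acid-secreting cells and 4.65 for TP63 of its epithelium.

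Between late and early numbers the ribosomal, respiratory and proteasome genes were lower nearly throughout. In the other lists many genes were not called. Those called went mostly in the same direction in some lists and in both directions in others. Of 15880 genes tested, 6384 (40.2%) differed between late and early numbers in limma with sex as a covariate (Benjamini-Hochberg adjusted p under 0.05), of which 2961 (18.6%) were higher and 3423 (21.6%) lower in late membranes. All differences given are on the log2(scaled FPKM + 0.1) scale, late minus early unless stated. Most were small: the median size among called genes was 0.32 on the log2 scale, and 132 called genes differed by at least 2-fold, 115 higher and 17 lower. The libraries of the ranges did not overlap at all for 873 genes (5.5%). Without scaling between libraries the split became 4298 higher and 1713 lower, and the median difference over all genes moved from -0.01 to 0.09.

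The late minus early difference was seen in both sexes. Within females 4001 genes (25.2%) were called and within males 3931 (24.8%), of which 2502 were called in both, 62.5% of the female and 63.7% of the male list, and 2501 of these had the same direction. The difference between the sexes in the late minus early change was called for 0 genes by limma, with 1028 at an unadjusted p under 0.05. The female count rested in part on 1 membrane: without the early female embryo 6 it was 2317 genes.

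The first principal component of the day 11 libraries, computed over 15155 genes off the sex chromosomes with the mean of each sex removed, held 17.1% of the variance. Early membranes scored between -44.2 and -9.23 and late membranes between 7.07 and 31.1, and the range accounted for 85.9% of this component. The neighbours at the boundary, embryo 20 and embryo 22, scored -9.23 and 18.1. As the boundary was drawn with earlier results of these data known, this split is a description and no test of the boundary. The second component held 8.52% of the variance, with 1.83% of it between the ranges.

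**Figure D1:**
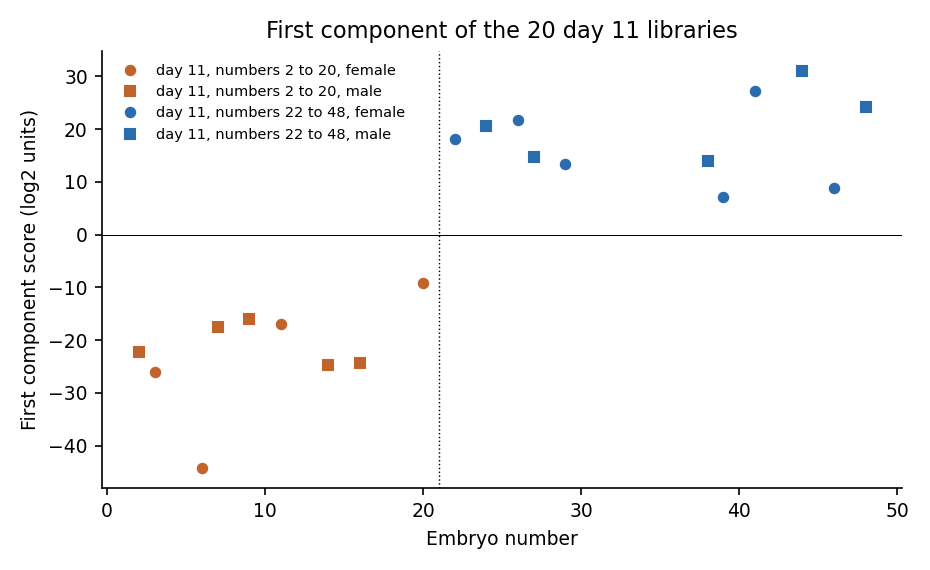
Score on the first principal component (log2 units) against embryo number for the 20 day 11 libraries, circles for females and squares for males; the dotted line lies between embryos 20 and 22. All 9 early membranes score at or under -9.23 and all 11 late membranes at or over 7.07. The boundary was drawn with earlier results of these data known.

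Within a range no gene followed the number past the threshold. In limma fits, a slope on the number was called for 0 genes among early membranes (1160 at an unadjusted p under 0.05), 0 among late membranes (787) and 0 among the 20 day 15 membranes (981). With range and number in the same fit, 817 genes were called for the range and 0 for the number (792 unadjusted). A slope on the number alone, with no range in the fit, was called for 5253 genes. With 9 and 11 membranes and numbers that rise across both ranges, these fits cannot place every gene as a step or as a slope. The boundary was also drawn with earlier results of these data known, which can favour the range over the number in the same fit.

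Protein synthesis and energy genes were lower in late membranes. All 68 measured cytosolic ribosomal protein genes, which encode the protein part of the ribosome, fell, where 21.6% of all genes tested did, with a median log2 difference of -0.44 against -0.01 over all genes. In 34 of the 68 the libraries of the ranges did not overlap, against 5.5% of all genes. RPL34 (ENSGALG00000032002; chromosome 4, 37708385 to 37711694), of the large subunit, was at 1476, 1694 and 2454 scaled FPKM (lowest, median and highest, the order used throughout) in early membranes, at 1062, 1187 and 1389 in late membranes and at 1118, 1306 and 1967 at day 15. Every late value lay under every early value, and the day 15 values overlapped the late range. The late minus early difference of RPL34 was -0.56, SE 0.071, limma adjusted p = 5.4e-06. RPS21, a small-subunit protein and the ribosomal gene with the largest difference, was at 64, 79.9 and 137 FPKM in early and 43.2, 50.5 and 54.3 in late membranes (-0.83, SE 0.09, limma adjusted p = 1.5e-06). RPL35A fell as well, by 0.55 on the log2 scale.

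The respiratory chain showed the same direction in both of its genomes. Of 58 nuclear genes for oxidative phosphorylation 53 fell and 0 rose (median -0.32), where 21.6% of all genes fell. All 13 protein-coding genes of the mitochondrial chromosome fell (median -0.43). NDUFB7 (ENSGALG00000038714; chromosome 30, 901099 to 904843), a complex I subunit, was at 195, 239 and 379 FPKM in early, 134, 146 and 201 in late and 141, 172 and 285 in day 15 membranes, and 10 of the 11 late values lay under the lowest early value. Its difference was -0.66, SE 0.088, limma adjusted p = 9.7e-06. COX7C and COX7B, small subunits of cytochrome c oxidase, differed by -0.50 and -0.48.

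ND6, the complex I subunit encoded on the light strand of the mitochondrial genome, was at 597, 743 and 1198 FPKM in early and 354, 431 and 598 in late membranes. Of the late values 10 of 11 lay under the lowest early one, and day 15 membranes (389, 578 and 1005) overlapped both ranges. The difference of ND6 was -0.79, SE 0.13, limma adjusted p = 8.9e-05. ND1 fell by 0.54 on the log2 scale and MT-CO1, the catalytic subunit of cytochrome c oxidase, by 0.42 on the log2 scale. The mitochondrial share of each library moves with these genes by construction. With that share as a covariate, 64 of the 68 ribosomal genes and 47 of the 58 nuclear respiratory genes were still lower and 0 of either were higher. Of all 15880 genes, 1674 were lower and 1400 higher in that fit.

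The proteasome, which degrades ubiquitin-marked proteins, moved the same way: 30 of 32 genes fell and 1 rose (median -0.28), where 21.6% of all genes fell. The ranges did not overlap for 17 of them, against 5.5% of all genes. PSMC5, an ATPase of the regulatory cap, was at 90.4, 99.4 and 129.8 FPKM in early and 65.5, 75.3 and 80.2 in late membranes, with no overlap (-0.49, SE 0.051, limma adjusted p = 9.4e-07). PSMD4, a ubiquitin receptor, differed by -0.40 and again did not overlap.

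Day 15 set these groups apart from each other. The proteasome was lower still at day 15, with 31 of 32 genes lower than at day 11 (31.1% of all genes were lower and 32.6% higher) and a median of -0.15 against late membranes. Of 68 ribosomal protein genes 49 were lower and 0 higher at day 15 than at day 11. They stood close to the late level, with a median of 0.06 against late and -0.39 against early membranes. Nuclear respiratory genes lay between the ranges, at a median of 0.15 above late and -0.16 against early, and 15 of them were higher and 12 lower at day 15 than at day 11. Mitochondrial genes lay 0.24 above late and -0.18 against early membranes. Day 15 and day 11 comparisons share the day 11 libraries, so their values are given side by side and not as separate evidence.

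**Figure D2:**
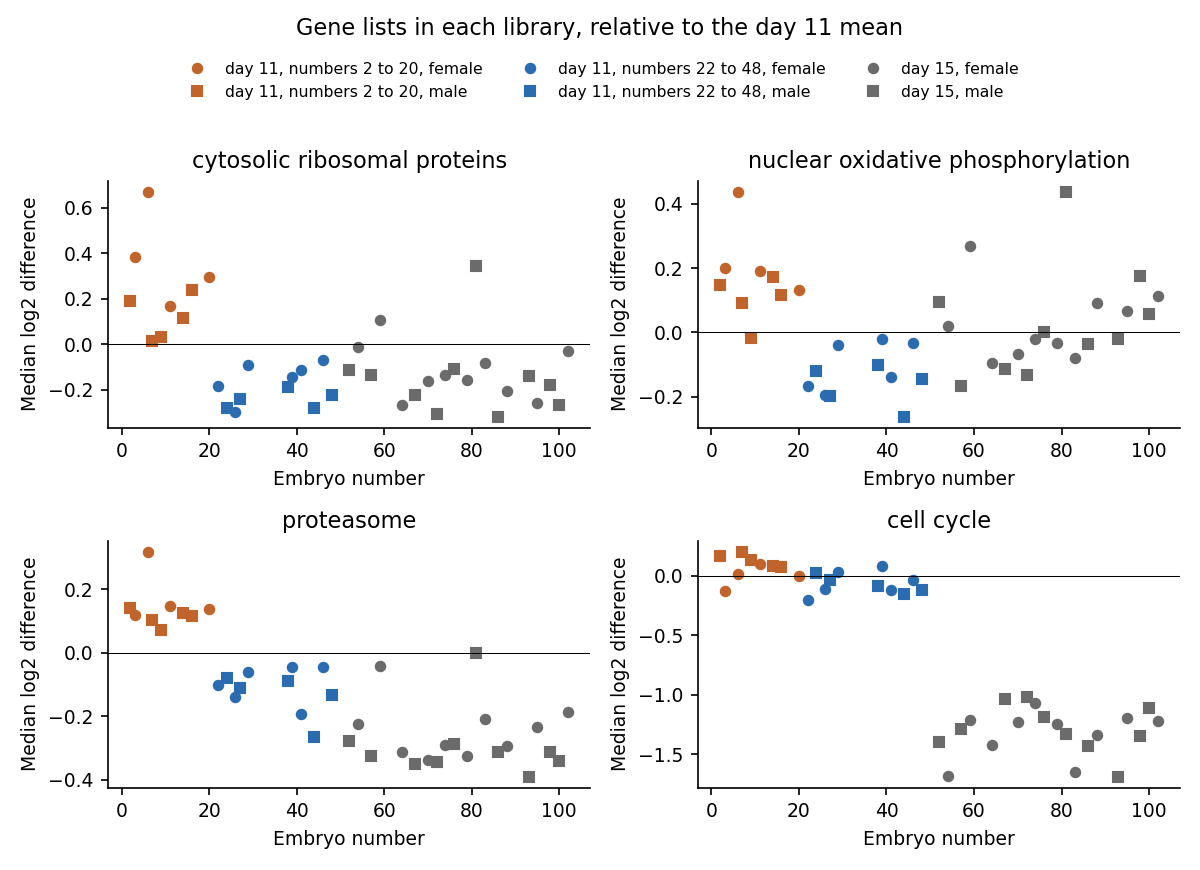
Median log2 difference of the members of each list from their day 11 mean, for each of the 40 libraries against embryo number (orange early day 11, blue late day 11, grey day 15; circles female, squares male). Ribosomal, respiratory and proteasome lists separate early from late membranes without overlap, while the cell cycle list overlaps at day 11 (early -0.13 to 0.20, late -0.20 to 0.09) and lies at or under -1.02 at day 15.

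Early female embryo 6 had the highest ribosomal, respiratory and proteasome scores of the day 11 libraries. Without it all 68 ribosomal genes, 52 respiratory genes and 30 proteasome genes were still called lower. Without scaling between libraries 68, 48 and 22 were, where 1713 of all 15880 genes were. With range and number in the same fit the counts were 50, 19 and 6, where 449 of all 15880 genes were lower.

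Part of the proliferation genes were lower in late membranes. Of 68 cell cycle genes 30 fell and 2 rose, where 21.6% of all genes fell and 18.6% rose, with a median of -0.12 (females -0.05, males -0.20). At day 15 64 of the 68 were lower than at day 11, where 31.1% of all genes were, with a median of -1.32. PCNA, the sliding clamp of DNA replication, was at 115, 130.4 and 149.7 FPKM in early, 83.5, 94.4 and 111 in late and 46.3, 56.4 and 67.6 in day 15 membranes. The ranges did not overlap, and the difference was -0.47, SE 0.054, limma adjusted p = 2.1e-06. GINS1, part of the replicative helicase, fell by 0.55 on the log2 scale.

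Genes of cell division gave both directions. PLK1, a kinase of mitotic entry that the naming rule had not taken, was at 30.4, 34.7 and 40.3 FPKM in early and 24.9, 30.1 and 34.3 in late membranes, with overlap, and at 5.12, 7.86 and 10.2 at day 15. Its late minus early difference was -0.23, SE 0.068, limma adjusted p = 0.012, a call lost without scaling. ANLN, which anchors the ring that divides cells, went the other way from the list at day 11, with 12.3, 17.1 and 20.1 FPKM in early and 19, 21.4 and 25 in late membranes (0.43, SE 0.08, limma adjusted p = 0.00021), and fell to 5.53, 8.94 and 12.2 at day 15. Without scaling between libraries the cell cycle counts were 18 lower and 5 higher, where 1713 of all 15880 genes were lower and 4298 higher.

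Histone genes, which are used as DNA is copied, fell in 8 of 16 cases and rose in 0 (median -0.33), where 21.6% of all genes fell. These genes are short, with a median exon length of 685 bases. Among all protein-coding genes with exon lengths of 99 to 990 bases, 38.5% fell and 11.3% rose. The part of gene length in the histone count was not tested. HIST1H2B7, a histone H2B gene, was at 1.55, 1.84 and 2.7 FPKM in early and 0.128, 0.964 and 1.73 in late membranes (-1.11, SE 0.30, limma adjusted p = 0.0054). Histone copies are near identical and may share reads.

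Splicing and RNA-binding genes fell in 24 of 54 cases and rose in 2 (median -0.10), where 21.6% of all genes fell and 18.6% rose. The counts depended on scaling. Without it 15 fell and 15 rose, where 1713 of all 15880 genes fell and 4298 rose. SNRPF, of the ring that holds spliceosomal RNAs, was at 101.6, 107 and 159 FPKM in early, 64, 78.5 and 94.1 in late and 41.1, 51.6 and 66.9 in day 15 membranes, a stepwise fall with no overlap between early and late values. Its difference was -0.53, SE 0.075, limma adjusted p = 1.6e-05, and that of its partner SNRPE was -0.51. DDX17, an RNA helicase, was higher in late membranes, with 59.8, 93.2 and 109 FPKM in early and 112, 128 and 143 in late membranes and no overlap (0.53, SE 0.075, limma adjusted p = 1.7e-05).

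Embryonic globins were lower in late membranes and nearly lost by day 15. HBE, an ε-type globin made by the first generation of red cells (ENSGALG00000035309; chromosome 1, 197275578 to 197277208), was at 118, 173 and 414 FPKM in early, 69, 101 and 249 in late and 1.8, 5.72 and 11.7 in day 15 membranes. Of the late values 9 of 11 lay under the lowest early one, and no day 15 value reached the day 11 range. The late minus early difference was -0.80, SE 0.20, limma adjusted p = 0.0037 and the day 15 minus day 11 difference -4.60, SE 0.17, limma adjusted p = 6.8e-23. HBBR, the ρ-type globin of the same cluster (ENSGALG00000017347, chromosome 1, 197288212 to 197289402), differed by -0.79 and -4.56 in the same comparisons, and HBZ, the embryonic α-type chain, by -0.74 and -4.10. These genes are similar in sequence and may share reads.

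Globins of later red cells were also lower in late membranes, without the day 15 loss. HBA1, the main adult α chain, chosen after its values were seen, was at 14401, 17059 and 25009 FPKM in early, 8609, 11977 and 18308 in late and 6681, 12933 and 29829 in day 15 membranes. Its difference was -0.56, SE 0.13, limma adjusted p = 0.0013 between ranges and -0.18, SE 0.13, limma adjusted p = 0.24 between days, and HBAD, the other adult α chain, differed by -0.44 and -0.25. Over the whole erythroid list 9 of 24 genes fell and 3 rose, where 21.6% of all genes fell and 18.6% rose. The list score, the median deviation of its genes from their day 11 mean, overlapped between early (-0.44 to 0.42) and late membranes (-0.31 to 0.39). The haemoglobin share was 4.15% to 6.84% in early and 2.84% to 6.39% in late membranes. The part of blood content in the globin values was not tested.

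Some epithelial genes were higher in late membranes, and most did not pass the test. Of 47 genes for keratins and epithelial junctions 13 were higher, 2 lower and 32 not called. Their median was 0.07 (females 0.00, males 0.23), and 18.6% of all genes were higher and 21.6% lower. At day 15 37 were higher and 3 lower than at day 11 (median 0.57), where 32.6% of all genes were higher and 31.1% lower. ITGA6, an integrin subunit that ties the basal epithelium to its basement membrane (ENSGALG00000034007; chromosome 7, 17715353 to 17831994), was at 13.4, 21.2 and 31.2 FPKM in early, 28.8, 35.5 and 53.7 in late and 51.6, 90.7 and 120.2 in day 15 membranes. Of the late values 8 of 11 exceeded every early one, and 1 late value reached the day 15 range. The difference was 0.87, SE 0.14, limma adjusted p = 7.2e-05 between ranges and 1.75, SE 0.099, limma adjusted p = 5.8e-18 between days.

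Other genes of stratified epithelium rose with it. PKP1, a plaque protein of desmosomes, was at 14.9, 23.3 and 36.6 FPKM in early and 30.9, 43.4 and 47.9 in late membranes (0.84, SE 0.14, limma adjusted p = 7.1e-05). TP63, the transcription factor of basal epithelium, was at 4.65, 7.18 and 9.78 in early and 8.79, 11.8 and 15.1 in late membranes (0.73, SE 0.11, limma adjusted p = 2.5e-05). FAM83B, a scaffold of epidermal growth factor receptor signalling (ENSGALG00000016299; chromosome 3, 87700116 to 87743877), followed PAPLN in size of increase among the protein-coding genes that the naming rule took (a symbol and a mean log2 level of at least 1), with 1.63, 2.54 and 4.16 FPKM in early and 5.31, 5.98 and 7.64 in late membranes with no overlap, and 6.5, 13.6 and 18.9 at day 15. Its difference was 1.22, SE 0.13, limma adjusted p = 8.8e-07.

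Genes for acid secretion and ion transport were not called more often than genes in general (40.2%). Of 21 V-ATPase genes 4 rose and 4 fell (median 0.00), shares near those of all genes (18.6% and 21.6%). At day 15 16 were higher and 1 lower than at day 11, where 32.6% of all genes were higher and 31.1% lower. The risers included subunits of proton-secreting cells: ATP6V0A4 was at 25.5, 37.7 and 60.6 FPKM in early, 38.7, 60 and 73 in late and 65.9, 116 and 209 in day 15 membranes, with 5 late values above every early one (0.63, SE 0.15, limma adjusted p = 0.0024). ATP6V0D2 differed by 0.48 and ATP6V1C2 by 0.38, the latter not called without early female embryo 6 (0.28, limma adjusted p = 0.050, just above the threshold). Of 25 acid-base transport genes 5 rose and 1 fell (median 0.19), near the share of all genes that rose and below the share that fell. Of 35 for ions and water 10 rose and 1 fell (median 0.05), above the share of all genes that rose and below the share that fell.

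RHCG, an ammonia channel of acid-secreting epithelia, was at 25.9, 51.7 and 94.8 FPKM in early, 49.8, 77.6 and 112 in late and 128, 355 and 548 in day 15 membranes. It differed by 0.66, SE 0.19, limma adjusted p = 0.0079 between ranges and by 2.40, SE 0.15, limma adjusted p = 2.4e-16 between days, and most of its late values overlapped the early ones. CA2, the cytosolic carbonic anhydrase that supplies the protons, did not pass the test between ranges, with 66.8, 90.9 and 158 FPKM in early and 97.7, 111 and 134 in late membranes (0.25, SE 0.13, limma adjusted p = 0.13), although it rose to 260.3, 742 and 1677 at day 15. Its late minus early difference was called when early female embryo 11 (limma adjusted p = 0.017) or early male embryo 14 (limma adjusted p = 0.026) was left out.

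A pair of bicarbonate carriers took different courses. SLC4A4, which moves sodium with bicarbonate, was at 7.64, 8.94 and 11.9 FPKM in early, 10.9, 16.6 and 21 in late and 4.53, 10.3 and 18.5 in day 15 membranes. It rose between ranges (0.83, SE 0.11, limma adjusted p = 8.4e-06) and fell between days (-0.29, SE 0.096, limma adjusted p = 0.0088). SLC4A7, a related carrier, rose in both comparisons, by 0.75 and 0.51. KCNK5, an acid-sensitive potassium channel, rose between ranges from 3.73, 5.17 and 7.16 to 6.86, 7.86 and 11 FPKM (0.61, SE 0.10, limma adjusted p = 0.00011) and differed by 0.069 between days, which did not pass the test.

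Of 21 calcium genes 6 were higher and 5 lower, near the shares over all genes (18.6% and 21.6%). CASR, the receptor that senses extracellular calcium, was low at 0.287, 0.55 and 0.992 FPKM in early and 0.611, 1.27 and 1.91 in late membranes and stood at 1.12, 3.03 and 5.39 at day 15. Its differences were 0.86, SE 0.22, limma adjusted p = 0.0038 and 1.83, SE 0.16, limma adjusted p = 1.5e-12; the naming rule had not taken it. ITPR2, a calcium release channel, was at 5.51, 7.97 and 9.36 FPKM in early and 9.64, 11.5 and 15.4 in late membranes without overlap (0.58, SE 0.096, limma adjusted p = 8.4e-05). S100A10, a small annexin partner of the S100 family, went down from 498, 564 and 673 to 359.7, 411 and 614 FPKM (-0.46, SE 0.083, limma adjusted p = 0.00019) and was at 543, 634 and 843 at day 15.

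**Figure D3:**
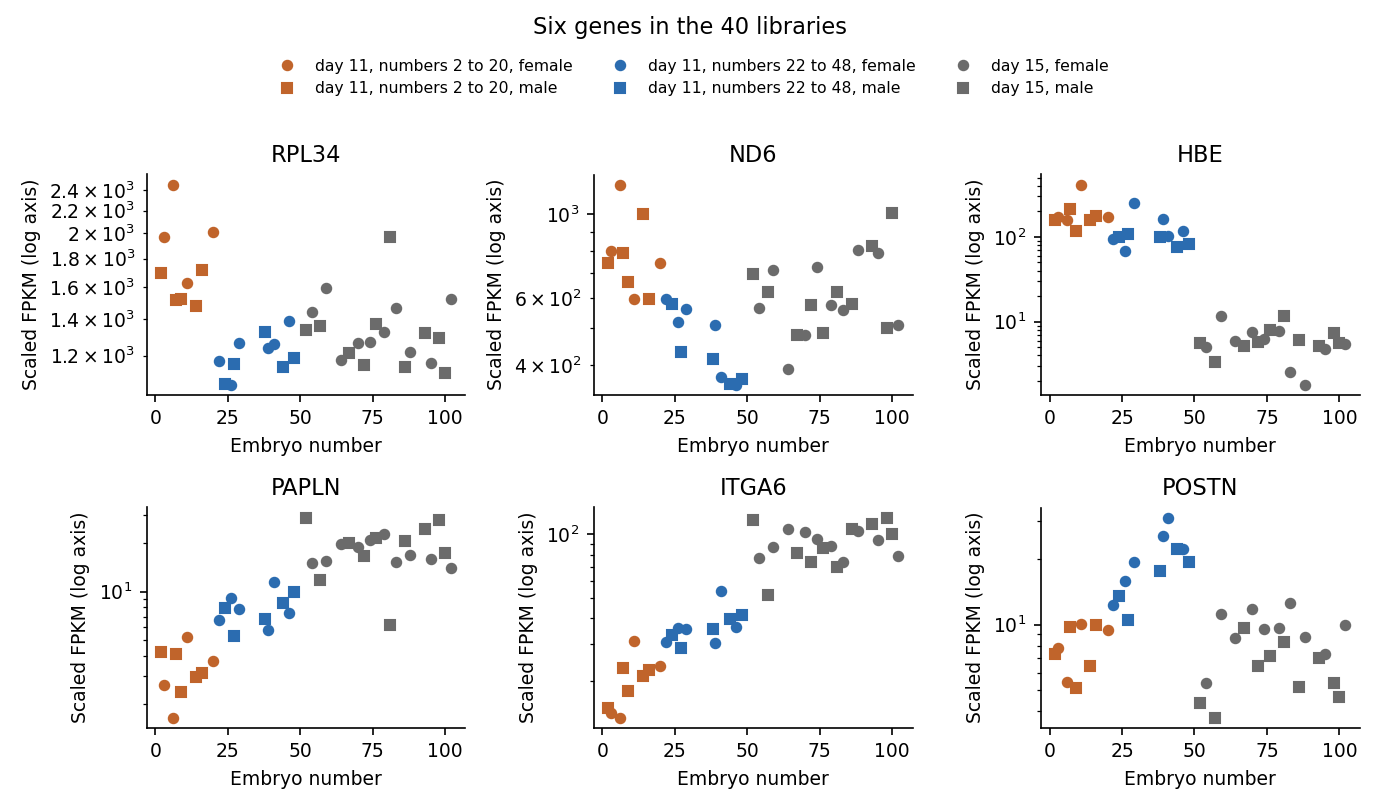
Scaled FPKM (log axis) against embryo number in the 40 libraries for RPL34, ND6, HBE, PAPLN, ITGA6 and POSTN (orange early day 11, blue late day 11, grey day 15; circles female, squares male). RPL34, PAPLN and POSTN do not overlap between early and late membranes, and POSTN is the one of these genes whose day 15 median (7.78) returns to the early median (7.76).

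Single matrix genes were higher in late membranes. Of 56 extracellular matrix genes 20 rose, 1 fell and 35 were not called, where 18.6% of all genes rose, with a median of 0.17 (0.28 in females and 0.05 in males, a contrast not tested for the list). Among protein-coding genes the late minus early difference rose with gene length. With a smooth on exon length removed, the counts were 9 higher and 7 lower with a median of 0.02, and with exon length and genomic span removed 6 higher and 7 lower. The counts and median of the list therefore depended on that setting, and the shares of all genes in it are not given. The single genes described next were called in the same direction with exon length removed unless named.

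PAPLN, papilin, a secreted basement membrane glycoprotein (ENSGALG00000009315; chromosome 5, 26533055 to 26554073), had the largest increase among the protein-coding genes that the naming rule took. It was at 1.64, 3.12 and 5.2 FPKM in early, 5.3, 7.83 and 11.5 in late and 6.19, 18.1 and 28.9 in day 15 membranes. All 11 late values exceeded every early value, and the difference was 1.25, SE 0.18, limma adjusted p = 1.5e-05 between ranges and 1.82, SE 0.14, limma adjusted p = 4.6e-14 between days.

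POSTN, periostin, a matricellular protein of fibroblasts (ENSGALG00000017046; chromosome 1, 173372443 to 173406135), was at 5.07, 7.76 and 10 FPKM in early and 10.5, 19.4 and 31.2 in late membranes with no overlap, and returned to 3.71, 7.78 and 12.5 at day 15. Its difference was 1.22, SE 0.18, limma adjusted p = 2.8e-05 between ranges and -0.67, SE 0.13, limma adjusted p = 1.8e-05 between days. OMD, a leucine-rich proteoglycan, and VIT, vitrin, had the same course, with differences of 1.03 and 1.03 between ranges and -0.86 and -0.95 between days. NOX4, an NADPH oxidase, rose by 1.01 between ranges and differed by -0.25 between days, which did not pass the test.

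Other matrix genes rose in both comparisons. ADAMTS5, a protease that cleaves aggrecan, was at 1.18, 1.4 and 2.47 FPKM in early and 2.41, 3.22 and 5.44 in late membranes (1.14, SE 0.15, limma adjusted p = 1.1e-05), with 10 of 11 late values above the early range. TNC, tenascin-C, was at 3.94, 6.21 and 7.17 FPKM in early and 6.37, 8.63 and 12.6 in late membranes (0.66, SE 0.14, limma adjusted p = 0.00063) and COL12A1, a fibril-associated collagen, at 8.68, 18.4 and 24.1 in early and 20.1, 24.8 and 32.2 in late membranes (0.62, SE 0.13, limma adjusted p = 0.0008). COL12A1 was not called with the exon length smooth removed, and neither of these was with the span removed as well. PTGFRN, a membrane partner of tetraspanins, rose from 2.45, 3.35 and 4.7 to 5.65, 6.84 and 8 FPKM without overlap (1.00, SE 0.095, limma adjusted p = 5.7e-07).

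Contractile and mural genes were called in both directions. Of 31 genes of smooth muscle and mural cells 12 were higher, 5 lower and 14 not called in late membranes (median 0.15). Of all genes 18.6% were higher and 21.6% lower. At day 15 23 were higher and 5 lower than at day 11 (median 0.46), where 32.6% of all genes were higher and 31.1% lower. CNN1, calponin, an actin-binding protein of smooth muscle, was at 3.38, 14.2 and 32.7 FPKM in early, 17.5, 23.9 and 40.1 in late and 18.5, 43.7 and 117 in day 15 membranes. Most late values overlapped the early ones, and the difference was 1.03, SE 0.30, limma adjusted p = 0.0093. ACTA1, the skeletal α-actin, rose by 1.00, and MYOCD, the coactivator of smooth muscle genes, by 0.93. These named genes all rose, while differences in the list ran from -0.45 to 1.03.

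Receptors of mural and stromal cells were among the called genes. PDGFRB, the pericyte receptor for platelet-derived growth factor, was at 9.64, 17.8 and 25.8 FPKM in early and 24.9, 29.9 and 33.1 in late membranes (0.70, SE 0.12, limma adjusted p = 0.00015). RGS5, a pericyte marker, rose from 3.75, 5.99 and 10.9 to 5.22, 13.1 and 33.8 FPKM (0.85, SE 0.27, limma adjusted p = 0.018). PDGFRA, the fibroblast receptor of the same family, rose by 0.70 between ranges and fell by 0.37 between days, and HGF, a growth factor secreted by mesenchyme, rose by 0.65 and fell by 0.41. The genes named in this paragraph all rose and do not stand for the lists. Of the 34 stromal fibroblast genes as a list, 3 rose and 7 fell (median -0.10, lowest -0.83). The risers were below the share of all genes that rose (18.6%), and the fallers near the share that fell (21.6%).

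Angiogenic signalling genes rose in 17 of 53 cases and fell in 4 (median 0.14). With exon length and genomic span removed 8 rose and 7 fell, but the shares of all genes in that setting are not given. Of 31 endothelial markers 8 were higher and 7 lower, near the shares over all genes (18.6% and 21.6%). Differences in this list ran from -0.45 to 0.83 with a median of 0.04. The members described next both rose and do not stand for the list. STAB2, a scavenger receptor of sinusoidal and lymphatic endothelium, was at 13.2, 26.6 and 29.2 FPKM in early and 25.2, 37.4 and 51.6 in late membranes, with 10 of 11 late values above the early range (0.63, SE 0.13, limma adjusted p = 0.00068). PROX1, the transcription factor of lymphatic endothelium, was low at 0.675, 1.18 and 2.45 FPKM in early and 1.64, 1.97 and 2.73 in late membranes (0.83, SE 0.16, limma adjusted p = 0.00033).

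Metabolic and hormonal genes differed one by one. PFKFB3, an enzyme that raises the rate of glycolysis, was at 2.54, 4.85 and 6.15 FPKM in early, 5.55, 7.6 and 8.93 in late and 6.34, 19.7 and 32.3 in day 15 membranes (0.82, SE 0.14, limma adjusted p = 0.0001). The hypoxia and glycolysis list, however, split into 9 higher and 11 lower of 43, near the shares over all genes (18.6% and 21.6%). PDK4, which diverts pyruvate from oxidation, rose by 0.41, a call lost with exon length removed. HSD3B1, a steroid-producing dehydrogenase, was at 0.396, 0.908 and 1.62 FPKM in early, 0.981, 2.25 and 4.56 in late and 9.53, 29.1 and 44.3 in day 15 membranes. Its difference was 1.23, SE 0.28, limma adjusted p = 0.0016 between ranges and 4.08, SE 0.20, limma adjusted p = 5.6e-20 between days.

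Clock genes rose in part. Of 25 circadian clock genes 10 rose and 1 fell (median 0.06), where 18.6% of all genes rose and 21.6% fell. At day 15 19 were higher and 3 lower than at day 11, where 32.6% of all genes were higher and 31.1% lower. CLOCK, the core transcription factor of the oscillator, was at 1.22, 1.73 and 2.52 FPKM in early and 2.72, 3.35 and 4.62 in late membranes without overlap (0.89, SE 0.14, limma adjusted p = 5.4e-05). KLF9, a glucocorticoid-responsive factor with a daily rhythm in mammals, rose by 0.64. NCOA2, a nuclear receptor coactivator, rose from 10.4, 11.9 and 13 to 13.8, 18.9 and 21.3 FPKM without overlap (0.67, SE 0.07, limma adjusted p = 8.8e-07). FOSL2, an AP-1 factor of the immediate early list, rose from 6.27, 8.11 and 9.93 to 11.4, 12.8 and 15, also without overlap (0.68, SE 0.071, limma adjusted p = 9.8e-07). Of the 33 immediate early genes 8 fell, near the share of all genes that fell, and 4 rose. With exon length removed the clock counts were 6 higher and 4 lower, and the shares of all genes in that setting are not given.

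Of 39 genes for lipid synthesis 11 were lower and 4 higher (median -0.11), where 21.6% of all genes were lower and 18.6% higher. Without early female embryo 6 the lower count was 6. Without scaling it was 4 with 7 higher, where 1713 of all 15880 genes were lower and 4298 higher. PMVK, a kinase of the mevalonate pathway, was at 42.6, 48.6 and 59.8 FPKM in early and 23.2, 32.9 and 41.2 in late membranes without overlap (-0.65, SE 0.091, limma adjusted p = 1.5e-05), and FDFT1, squalene synthase, fell by 0.37 on the log2 scale. ACACA, the enzyme of malonyl-CoA synthesis, rose from 8.86, 9.82 and 10.6 to 10.7, 14.9 and 17.1 FPKM without overlap (0.54, SE 0.077, limma adjusted p = 1.7e-05). In the heat shock and unfolded protein response list 2 of 50 rose and 6 fell, both below the shares over all genes. SEL1L, of the pathway that removes misfolded proteins, rose by 0.65 and HSPE1, the mitochondrial co-chaperonin, fell by 0.35 on the log2 scale.

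The largest decrease by the naming rule was of CYTL1. CYTL1, a secreted protein known from cartilage in mammals (ENSGALG00000015015; chromosome 4, 78878821 to 78881513), was at 1.96, 9.2 and 25.2 FPKM in early, 0.0222, 1.44 and 7.3 in late and 0, 0.0962 and 0.866 in day 15 membranes. Late values spread from near the day 15 level into the early range, with 6 of 11 under the lowest early one. Its difference was -2.36, SE 0.64, limma adjusted p = 0.0062 between ranges and -4.20, SE 0.39, limma adjusted p = 6.1e-12 between days. WNT11, a ligand of the Wnt family (ENSGALG00000000839; chromosome 1, 195315169 to 195341425), was at 1.91, 3.45 and 4.47 FPKM in early, 0.636, 1.87 and 2.81 in late and 0.0127, 0.0626 and 0.396 in day 15 membranes. It differed by -0.98, SE 0.24, limma adjusted p = 0.0026 between ranges and by -3.62, SE 0.19, limma adjusted p = 3.6e-19 between days.

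BG1 and OTX5 did not pass the test between days (-0.11 and -0.12). BG1, an MHC-linked B-G antigen of the chicken, was at 0.76, 6.76 and 9.73 FPKM in early and 0.745, 1.13 and 7.49 in late membranes (-1.43, SE 0.49, limma adjusted p = 0.026). Late embryos 22, 38 and 46 stood at 7.49, 6.66 and 5.51, with the other late values at or under 1.65. Early embryo 16 stood at 0.76, with the other early values at or above 2.9959. Day 15 values ran from 0.379 to 20.6. The call was lost without early female embryo 11 (limma adjusted p = 0.054). OTX5, a homeobox factor, fell from 2.12, 3.85 and 5.51 to 0.673, 1.68 and 3.49 FPKM (-1.21, SE 0.26, limma adjusted p = 0.00081) and was at 0.726, 2.15 and 4.09 at day 15. S100A4, a calcium-binding protein of motile cells, fell from 4.27, 7.36 and 16 to 1.16, 4.04 and 7.72 FPKM (-0.83, SE 0.27, limma adjusted p = 0.018) and was higher at day 15, at 6.98, 19 and 77.9 (1.89, SE 0.24, limma adjusted p = 9.7e-09).

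Markers of other tissues did not divide the ranges as lists. Over all genes 18.6% rose and 21.6% fell. Among 41 leukocyte genes 5 rose and 2 fell, with CD3E, a T cell receptor component, at 2.53, 2.9 and 3.67 FPKM in early and 2.89, 4.06 and 6.09 in late membranes (0.45, SE 0.12, limma adjusted p = 0.0057) and RUNX1, a transcription factor of blood formation, at 0.67, 0.787 and 2 in early and 1.69, 2.35 and 3.5 in late membranes (1.20, SE 0.19, limma adjusted p = 3.8e-05). Of 16 genes of neural crest, glia and neurons 2 fell: PRPH by 0.46 on the log2 scale and UCHL1 by 0.46 on the log2 scale. Of 10 liver and yolk sac genes 1 fell, of 13 muscle genes 1 rose and 1 fell, and of 6 pancreatic genes 0 were called. Interferon and antigen presentation genes (6 of 38 higher, 8 lower) and steroid and sex hormone genes (8 of 39 higher, 7 lower) were near the shares over all genes. Innate defence (2 of 37 higher, 2 lower) and thrombocyte genes (2 of 18 higher, 2 lower) were below them. Like cornification genes (1 of 7 higher, 1 lower), these lists gave no clear direction by count.

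Small RNA gene models supplied 7 of the 10 increases that the naming rule took, which takes called genes that have a symbol, the same direction in females and males and a day 11 mean of 1 or more (log2); models outside these limits had larger differences. They are annotated precursors of 59 to 110 bases counted in mRNA libraries, and their values are not levels of the mature RNAs. gga-mir-6607, in an intron of the myosin phosphatase gene PPP1R12B on the same strand, was at 0, 1.71 and 3.94 FPKM in early and 2.26, 4.58 and 7.34 in late membranes, about 6.4 and 17.7 reads at the medians. Its difference was 1.92, SE 0.45, limma adjusted p = 0.0021, that of gga-mir-6572, in an intron of a long noncoding RNA gene, 1.74, and that of gga-mir-1329, in an intron of ATP6V1C2, 1.56. SNORD71, in an intron of AP1G1, differed by 1.65. gga-mir-12272 and gga-mir-1631, which lie in no annotated gene, differed by 1.48 and 1.40, and gga-mir-1603, on the strand opposite to COQ10B, by 1.34. All 7 rest on few reads, between 3.2 and 10 at the early median. With 1 library left out at a time, SNORD71 and gga-mir-12272 each lost the call in 1 of 20 fits and gga-mir-1631 in 5.

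3 of the host genes were called higher, with smaller estimates than the models inside them, and the difference between host and model was not tested. PPP1R12B differed by 0.37 (SE 0.060, limma adjusted p = 5.4e-05), AP1G1 by 0.29 (SE 0.040, limma adjusted p = 1.6e-05) and ATP6V1C2 by 0.38. The long noncoding RNA gene around gga-mir-6572 was not called, at -0.09 (SE 0.073, limma adjusted p = 0.34). Neither was COQ10B, on the strand opposite to gga-mir-1603, at 0.03 (SE 0.079, limma adjusted p = 0.79). Of the 297 miRNA gene models tested, 30 were higher and 11 lower in late membranes, both below the shares over all genes (18.6% and 21.6%). The 135 models in introns of a host gene on the same strand had a median of 0.42, with 99 above 0, the 153 with no such host a median of 0.13, and the 9 in host exons a median of 0.16. The number of miRNA models at or above 0.5 FPKM was 194 to 215 in early and 211 to 276 in late membranes.

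gga-mir-22 and gga-mir-363 went down instead. The gga-mir-22 model (ENSGALG00000024507; chromosome 19, 5528017 to 5528116) was at 17.7, 32.1 and 41.7 FPKM in early, 9.53, 14.6 and 28.6 in late and 17.6, 28 and 46.4 in day 15 membranes, the best covered of these models. Its difference was -0.93, SE 0.17, limma adjusted p = 0.00021. The gga-mir-363 model differed by -0.83 between ranges and -1.07 between days.

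The late minus early difference rose with the length of the gene. Among protein-coding genes divided into 10 classes by exon length, the median late minus early difference rose from -0.19 in the shortest to 0.19 in the longest class, and by genomic span, introns included, from -0.23 to 0.24. In the shortest span class 78 genes were higher and 545 lower, and in the longest 635 were higher and 57 lower. The day 15 minus day 11 medians covered less, from -0.06 to 0.10 by exon length and from -0.07 to 0.08 by span. Genes on the compact chromosomes 11 to 33 had a median of -0.07 and those on chromosomes 1 to 5 a median of 0.01. Genes above 0 numbered 19732 to 20369 in late and 19602 to 20007 in early libraries, ranges that overlap.

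**Figure D4:**
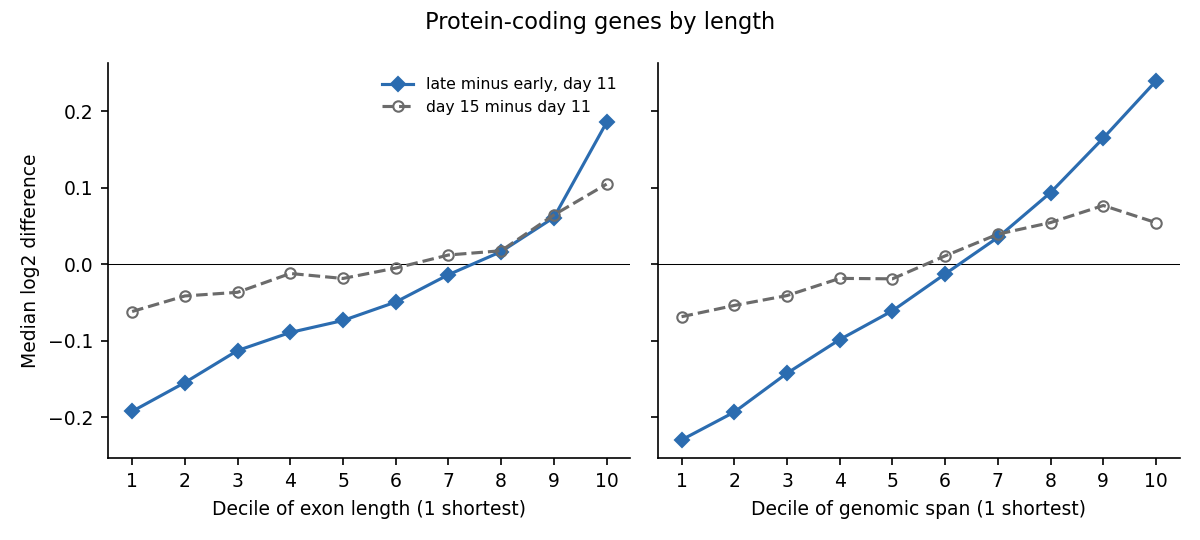
Median log2 difference of protein-coding genes in 10 classes of exon length (left) and genomic span (right), for late minus early day 11 membranes (filled) and day 15 minus day 11 (open). The late minus early medians climb from -0.23 to 0.24 over the span classes, and the day medians stay between -0.07 and 0.08.

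A smooth on length was then removed from each library. Ribosomal genes stayed at 68 lower of 68 with exon length removed and also with span removed, proteasome genes at 30 and 29 lower, and nuclear respiratory genes at 51 and 49 lower. Cell cycle genes were 42 and 28 lower, smooth muscle genes 11 and 9 higher, and epithelial genes 12 higher in both. Over all genes the late minus early counts of both sexes together stayed within 1.5 times the reported ones in both settings. Within each sex the genes called higher did not with span removed as well. They were 1201 in females and 1150 in males, against 1961 and 1851 as reported. The shares of all genes in these settings are not given beside the list counts, here or above. RNA integrity values were not at hand, and whether RNA quality differed between the ranges was not tested.

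The late minus early direction was then set beside the change from day 11 to day 15. Between days 10118 genes (63.7%) were called, 5184 (32.6%) higher and 4934 (31.1%) lower. Day 15 differed from early membranes in 10122 genes (63.7%) and from late membranes in 8442 (53.2%). Pairs whose group means share no library compare the range in one sex with the day in the other. Scaling and variances came from libraries of both sexes, so the calls in a pair are not independent. Of the genes called for the range in females, 2116 (52.9%) were also called for the day in males, near the 51.2% of all genes so called. They made up 26.03% of the male day list of 8129, where 25.2% of all genes were called for the range in females. Of the 2116, 1674 had the same direction and 442 the opposite. Of the genes called for the range in males, 2449 (62.3%) were called for the day in females, against 51.3% of all genes. They made up 30.1% of the female day list of 8145, where 24.8% of all genes were called for the range in males. Of the 2449, 2211 had the same direction and 238 the opposite.

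Set beside day 15, the members took different courses. The embryonic globins HBE, HBBR and HBZ and the replication genes PCNA and GINS1 were lower in late than in early membranes and lower again at day 15 than in late ones, as ITGA6, CNN1 and ATP6V0A4 were higher in both steps. Of the 32 proteasome genes 18 were lower at day 15 than in late membranes and 0 higher. Of the 68 ribosomal genes 3 were lower and 13 higher there, of the 58 nuclear respiratory genes 3 lower and 35 higher, and of the 13 mitochondrial genes 0 lower and 8 higher. Of all 15880 genes 4078 were lower and 4364 higher at day 15 than in late membranes. The ribosomal genes were below these shares in both directions. POSTN, OMD, VIT, PDGFRA, HGF and SLC4A4 were higher in late than in early membranes and lower at day 15 than in late ones, and their day 15 levels did not pass the test against early membranes (differences from -0.43 to 0.13). S100A10 was lower in late membranes and higher at day 15 than in late ones, with 0.13 against early membranes, not called, and S100A4 was higher at day 15 than in either range (1.48 against early, 2.30 against late).

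**Figure D5:**
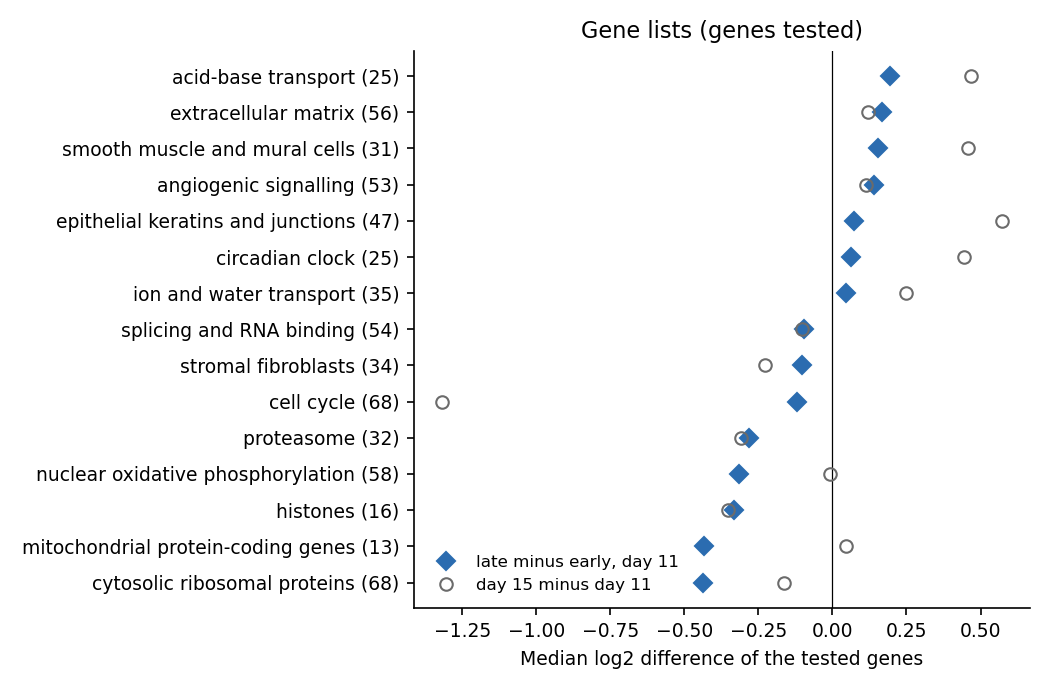
Median log2 difference of the tested genes of 15 lists between late and early day 11 membranes (filled diamonds) and between day 15 and day 11 (open circles), with the number of genes in parentheses. The cell cycle list has -0.12 and -1.32, the ribosomal list -0.44 and -0.17, and the mitochondrial list -0.43 and 0.05.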

How the data were processed

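The authors deposited 26152 gene models for 40 mRNA-seq libraries as values treated here as FPKM, normalised to gene length and library size (FPKM and RPKM could not be told apart), although the table is named for raw counts. The unit comes from the values: in 15718 single-transcript genes 100% of those under 200 reads were whole multiples (within 0.01) of 1 read. Per the submitters' processing notes, HISAT2, HTSeq and build GRCg6a were used. Versions and strand setting were not stated, so overlapping genes on opposite strands cannot be told apart. Symbols and coordinates come from the deposited annotation.

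FPKM were scaled with unweighted trimmed means of log ratios over the 40 libraries (30% and 5% trims) and transformed as log2(scaled FPKM + 0.1), which understates changes of low genes. A minimum of 0.5 FPKM in 10 libraries kept 15880 genes and removed 10272. These were tested in limma 3.58.1 (R 4.3.3) with trend and robust moderation, sex as a covariate and Benjamini-Hochberg adjustment at 0.05. The script was tested on simulated data. Within-sex, interaction, number and day contrasts used the same settings, and permutation tests used SciPy 1.17.1.

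The members, the boundary, the 32 lists and the naming rule were chosen with earlier results of these data known. The rule named, among called genes of one sign in both sexes, the 10 largest changes up and the 10 down (symbol present, mean log2 level of 1 or more) and up to 3 members per list. Protein-coding genes ranked in that way, and HBA1, HBAD, CASR, PLK1 and CA2, were added after their values were seen. Not every gene that the rule named is printed. Alternatives changed scaling, pseudocount, filter, covariates, gene length and each library in turn.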

Additional observations from a re-analysis of the deposited data

Results flagged for a closer look

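A single membrane lay far from the others of its sex and range (Dixon's gap test at 95%) in 26 of 368 groups of values examined; chance flags about 1 in 20 such groups. All values are scaled FPKM unless stated, with the range of the rest of the group after each.

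In early females, embryo 11 had the high HBE value of 413.7 (others 157 to 174), embryo 20 the high HGF value of 2.28 (1.53 to 1.64), and embryo 6 the high PSMD4 value of 124.1 (86.7 to 89.1) with low PRPH at 4.66 (6.02 to 6.32) and low STAB2 at 13.2 (25.97 to 26.9). In late females, embryo 41 was high in ITGA6 at 53.7 (30.5 to 36.2) and KCNK5 at 11.0 (7.63 to 8.66). Embryo 46 was low in DDX17 at 112.0 (123 to 129) and in the gga-mir-1603 model at 1.34 (2.60 to 3.63), embryo 39 low in NOX4 at 2.37 (4.74 to 6.35) and embryo 26 low in RPL35A at 524.0 (597 to 633).

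In early males, embryo 2 was low in the gga-mir-1329 model at 0.301 (2.63 to 3.56) and the gga-mir-22 model at 17.7 (31.9 to 36.3) and high in FDFT1 at 21.1 (13.8 to 15.4). Embryo 16 was low in BG1 at 0.761 (5.13 to 7.29), embryo 14 low in S100A4 at 5.53 (7.36 to 8.06) and embryo 7 low in TP63 at 4.65 (6.72 to 7.45). In late males, embryo 38 was high in BG1 at 6.66 (0.992 to 1.65), the reverse of embryo 16, and embryo 27 low in PKP1 at 30.9 (43.4 to 47.7) and ATP6V1C2 at 47.5 (61.0 to 67.4). Embryo 44 was low in PCNA at 83.5 (93.4 to 97.7). Embryo 48, with the highest day 11 number, was high in NDUFB7 at 181.6 (134 to 146), CA2 at 119.2 (97.7 to 101) and the gga-mir-6572 model at 9.07 (7.24 to 7.68), and low in the gga-mir-1631 model at 1.79 (3.63 to 4.45) and in the mitochondrial share at 8.55% (9.14% to 9.37%).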

How the results depend on the processing

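Without scaling between libraries the genes called lower were 1713 over both sexes, 984 in females and 841 in males. With range and number in the same fit 817 genes were called, 368 higher and 449 lower, and with the mitochondrial share as a covariate 3074, 1400 higher and 1674 lower. With smooths on exon length and genomic span removed, an alternative chosen after seeing the data, the genes called higher were 1201 in females and 1150 in males. The causes of these changes were not tested. Leaving out 1 library at a time gave 5843 to 6622 genes called (2733 to 3091 higher, 3110 to 3531 lower), 2317 to 4603 in females (1151 to 2286 higher, 1166 to 2317 lower) and 2900 to 3651 in males. The other counts over all genes stayed within 1.5 times the reported ones under the other settings of scaling, pseudocount, filter, covariates and length that were run. Of 96 list values (members higher, members lower and the median for each of the 32 lists), 61 moved, counts by over 1.5 times or medians by 1 SD or more between libraries of the same range and sex, without scaling, 59 with the number in the same fit, 41 with the mitochondrial share, and 28 and 36 with exon length and with length and span removed.

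Of the 87 genes named with values, 67 lost the late minus early call with the number in the same fit and 30 with the mitochondrial share, and 7 lost it with exon length and span removed. No late minus early difference of these genes changed sign under any setting run. The day difference of the gga-mir-1631 model, 0.011 as reported, was -0.026 without scaling, -0.0044 with upper quartile scaling, -0.027 with a pseudocount of 1, and -0.13 with either length smooth removed, and that of MT-CO1 was -0.0019 without scaling. A correction for GC content was not run, as no genome sequence was used here. No paired analysis was possible because every embryo number occurs once and the groups share no number. The small RNA models among the named increases rest on 3.2 to 10 reads at the early median.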
